A study of Mus musculus with 6 samples.

Results

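Genes of chloride channels and their relatives were measured in muscle cells and epithelial cells sorted from the trachea of mouse embryos. The members are the 42 rows of the deposited table, out of 23478 genes, whose symbols belong to the anoctamin (Ano), Clcn, Clca, Clic, bestrophin (Best), Lrrc8 and tweety (Ttyh) families or equal Cftr. They were chosen by symbol, not by their values, though with earlier results of these data known. The tracheas came from embryos at embryonic day 13.5 that all carried floxed Bmp4 alleles (Bmp4 f/f) and the reporter gamma SMA eGFP, in which green fluorescence marks cells that use gamma smooth muscle actin. No Cre driver is named in the labels, and every library is called a control. Cells were released with TrypLE for 15 minutes, labelled for the surface protein Epcam and separated by flow cytometry. Muscle cells were collected by GFP, so that muscle here means cells in which the reporter was active, and epithelial cells by surface Epcam. Each population gave 3 libraries. Whether a library pools several embryos is not stated, so p-values measure the spread between these libraries. The title of the series places these libraries in a study of how Wnt signalling acts on ion channel genes while the tracheal wall forms, and the comparison here asks which channel genes each tissue expresses.

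Chloride moves across the surface of airway epithelium into the lumen and draws water with it, mainly through Cftr, a channel opened by cyclic AMP signalling, and through channels opened by calcium. In smooth muscle the opening of calcium-activated chloride channels lets chloride leave the cell, depolarises the membrane and favours calcium entry and contraction. Other members work inside cells, where vesicular CLC proteins exchange chloride for protons, or answer cell swelling, as the LRRC8 proteins of the volume-regulated anion channel do. Mice that lack Ano1, the main calcium-activated chloride channel gene, form abnormal tracheal cartilage and trachealis muscle.

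Total counts ran from 17686605 to 49352790 in the muscle libraries and from 11847432 to 54848820 in the epithelial ones. Lineage marker genes differed between the populations. The summed level of 12 epithelial markers was 16.1 to 35.5 CPM (counts scaled to library size) in muscle and 4000 to 5299 CPM in epithelium. That of 10 smooth muscle markers was 4085 to 17450 CPM in muscle and 129 to 156 CPM in epithelium. These lists include Epcam and Actg2, the gamma smooth muscle actin gene, on which the sort was based. Muscle replicate 2 stands apart, with 9 of the 10 smooth muscle markers at 12.7% to 44.5% of the mean of the other muscle libraries and the remaining one, Synm, at 155%. Muscle replicate 2 and epithelium replicates 2 and 3 also held low counts of sensory receptor genes. The summed level of 1456 olfactory and vomeronasal receptor genes was 779 CPM in muscle replicate 2, 1439 CPM in epithelium replicate 2 and 603 CPM in epithelium replicate 3, and 7.40 to 45.1 CPM in the other libraries. These are called background counts below. Library sizes were TMM-scaled (trimmed mean of M-values) throughout, and a fold change is log2 of muscle over epithelium with its standard error (SE). In such sorted bulk samples, fewer cells of a type and less RNA per cell cannot be told apart.

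Muscle and epithelium shared many of these genes and differed in which plasma membrane chloride channel they carried at a high level. Ano1 was 12.04-fold higher in muscle, and Cftr was 56.4-fold higher in epithelium. All 42 members passed the filter on low counts, which needs a minimum count in as many libraries as 1 group has. 5 members were higher in muscle (Ano1, Clic1, Clic4, Lrrc8c and Ttyh2) and 4 in epithelium (Ano9, Cftr, Clcn3 and Clic6) with the quasi-likelihood test of edgeR at a threshold of 0.05 on the adjusted p. The 9 genes are 21.4% of the members, where 10.7% of all 19375 tested genes passed. By direction, 11.9% of the members were higher in muscle against 6.58% of all tested genes, and 9.52% were higher in epithelium against 4.11%. The groups did not overlap in 18 members (42.9%, against 26.9% of all tested genes), 11 of them higher in muscle (16.4% of all tested genes) and 7 in epithelium (10.5%). The median log2 fold change was -0.36 over the members and -0.10 over all tested genes. The remaining 33 members did not pass the threshold, and 13 of those had a mean under 5 CPM in both groups. An unadjusted edgeR p under 0.05 was found in 18 of the 42 members, the 9 past the threshold included. The share of all tested genes at that level is not given here, so that count has no background to be read against.

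**Figure D1:**
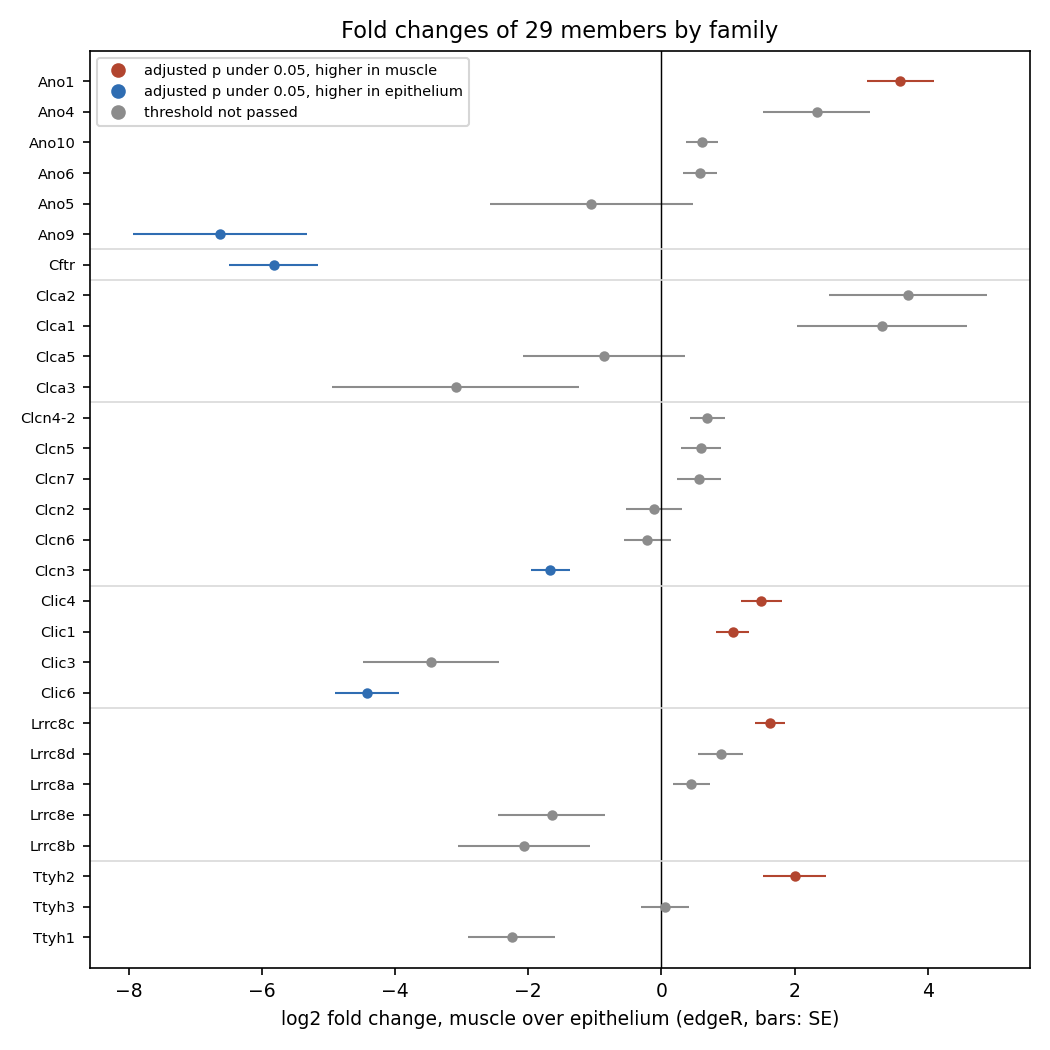
Log2 fold change of muscle over epithelium (x axis, edgeR, bars are SE) for the 29 members with a mean of at least 5 CPM in a group or past the threshold (y axis), grouped by family and coloured by whether the adjusted p was under 0.05. Members of each of the Ano and Clic families lie on both sides of 0 past the threshold, and the widest bars belong to genes of low level such as Clca3 and Ano5.

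Anoctamins are membrane proteins with a shared fold, of which some conduct chloride when calcium rises and others move phospholipids between the leaflets of the membrane. Of 10 anoctamin genes, 1 was higher in muscle, 1 in epithelium and 8 did not pass in edgeR. Ano1 encodes the calcium-activated chloride channel of smooth muscle and of secretory epithelium. It lies on chromosome 7 (GRCm38, 144588549 to 144751974, minus strand, 29 merged exons). In muscle replicates 1 to 3 its level was 411, 93.4 and 315 CPM, and the epithelial replicates, in the same order, had 27.2, 21.1 and 19.8 CPM. Every muscle library was above every epithelial one, and the epithelial libraries lay close together at 22.7 ± 3.96 CPM (SD, n = 3), so the gene was low but present in epithelium. The log2 fold change was 3.59 ± 0.51 (adjusted p = 0.0026). Muscle replicate 2 had 25.7% of the mean Ano1 level of the other muscle libraries, and the smooth muscle markers were low in the same library. The part of these markers in the spread of Ano1 was not tested. Without that library the log2 fold change was 4.01 (edgeR adjusted p = 3.4e-05).

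Ano9 showed the opposite pattern. This gene, also on chromosome 7 (141101212 to 141117806, minus strand, 16 merged exons), belongs to the anoctamins whose channel activity is less settled. It had 34.4, 30.1 and 40.6 CPM in epithelium replicates 1 to 3. Muscle replicates 1 and 3 had no counts, and 24 counts (1.20 CPM) stood in muscle replicate 2, which also had the most receptor counts among the muscle libraries. The groups were far apart, with 35.0 ± 5.26 CPM in epithelium (SD, n = 3) and an edgeR adjusted p of 0.013. The fitted log2 fold change of -6.63 ± 1.31 rests on those 24 counts. Without muscle replicate 2 the gene was at 0 in muscle and still passed (edgeR adjusted p = 2.5e-05). The call was lost without a filter on low counts (edgeR adjusted p = 0.050), without muscle replicate 1 (0.051), without epithelium replicate 1 (0.064) and without epithelium replicate 3 (0.086).

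Ano6, the scramblase that exposes phosphatidylserine, and Ano10, an anoctamin of intracellular membranes, were well expressed on both sides. Ano6 had 186, 135 and 182 CPM in muscle and 138, 102 and 96.1 CPM in epithelium. Muscle replicate 2 lay below epithelium replicate 1, and the log2 fold change of 0.58 ± 0.25 did not pass (edgeR adjusted p = 0.22). Ano10 had 69.2 ± 11.1 CPM in muscle and 45.3 ± 6.72 CPM in epithelium (SD, n = 3). Its groups did not overlap, and the log2 fold change was 0.61 ± 0.24 (edgeR adjusted p = 0.16, DESeq2 adjusted p = 0.046). Ano4 had 14.9, 7.99 and 11.7 CPM in muscle and 0.43, 4.34 and 2.18 CPM in epithelium. All muscle libraries were higher, but the threshold was not passed (2.33 ± 0.81, edgeR adjusted p = 0.12). The 2 higher epithelial values came from the libraries with many background counts, and without epithelium replicate 2 the adjusted p was 0.038 (edgeR). limma-voom called Ano4 with all libraries (adjusted p = 0.015). Ano5, a gene of skeletal muscle membrane repair, had 14.9 CPM in epithelium replicate 2 and 0.037 CPM in epithelium replicate 1, which spans the values of all muscle libraries (edgeR adjusted p = 0.88).

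Within the family the make-up differed between the tissues. Measured per kilobase of annotated exon, the muscle replicates had 68.0%, 36.8% and 63.0% of the summed anoctamin level in Ano1, and the epithelial replicates 13.5%, 10.7% and 10.1%. Ano9 took 25.0% ± 3.89 in epithelium and at most 0.67% in muscle. Ano6 took 20.4% ± 5.86 in muscle and 28.7% ± 5.32 in epithelium, and Ano10 took 17.5% ± 5.29 and 24.1% ± 3.43 (SD, n = 3). The exon length is the union over all annotated transcripts, so these shares shift if a tissue uses short forms.

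Cftr lies on chromosome 6 (18170687 to 18322768, plus strand, 29 merged exons). It had 67.2, 87.2 and 67.5 CPM in epithelium and 0.68, 2.95 and 0.48 CPM in muscle, in the order of the replicates. The highest muscle value was again in replicate 2, and no library was near the other group. The log2 fold change was -5.82 ± 0.67 (edgeR adjusted p = 0.0010). All 16 alternative fits called Cftr, with an adjusted p of at most 0.0063. Per kilobase of exon it stood at 9.53 ± 1.47 CPM in epithelium (SD, n = 3), next to Ano9 at 7.95 ± 1.19 and above Ano1 at 3.63 ± 0.64.

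The upstream sequence of the gene pair with the clearest opposite pattern among channels of settled function, Ano1 and Cftr, is shown to place both starts. The lines give the 250 bases before the RefSeq start (GRCm38.p6), 5' to 3' on the gene's strand, at chr7:144738574-144738823 (minus) and chr6:18170437-18170686 (plus). Capitals mark GGGCGG, a GC box, on either strand, and runs of overlapping matches are joined.
Ano1: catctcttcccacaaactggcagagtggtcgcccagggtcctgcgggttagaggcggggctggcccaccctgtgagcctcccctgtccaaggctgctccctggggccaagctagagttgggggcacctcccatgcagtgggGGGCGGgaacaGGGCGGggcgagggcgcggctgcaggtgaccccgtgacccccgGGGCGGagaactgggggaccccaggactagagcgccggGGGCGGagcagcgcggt
Cftr: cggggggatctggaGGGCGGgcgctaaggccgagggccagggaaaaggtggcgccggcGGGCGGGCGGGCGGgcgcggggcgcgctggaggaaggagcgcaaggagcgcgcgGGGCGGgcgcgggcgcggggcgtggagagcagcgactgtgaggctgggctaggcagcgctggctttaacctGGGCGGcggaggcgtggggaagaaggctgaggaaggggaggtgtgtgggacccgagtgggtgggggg
The Ano1 window holds 4 and the Cftr window 6 matches of GGGCGG, and 32.7% of 32851 mouse windows of this length hold at least 1. Both windows are rich in G and C, at 72.0% and 76.4% against a median of 52.4% over all windows. Neither holds TATAAA, which 12.4% of all windows hold. The RefSeq start of Ano1 lies 13401 bases inside the GENCODE gene, whose first exon is further upstream, so this window belongs to 1 of the annotated starts. Windows were found for 33 members, 7 of them among the 9 that passed the threshold. The CArG box, the site of serum response factor in many smooth muscle genes, matched in none of the 41 windows of the 33 members and in 1.47% of all windows, searched on both strands. This says only that the letters are not in these windows. TGTTTAC, a core of forkhead sites, matched in 1 of the 41 windows and in 3.17% of all.

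Clca proteins are secreted or membrane-bound proteases that raise the current of calcium-activated chloride channels and are not channels themselves. The table uses the older mouse names. Its Clca1, Clca2, Clca3, Clca4, Clca5 and Clca6 were read through RefSeq synonyms as Clca3a1, Clca3a2, Clca1, Clca3b, Clca2 and Clca4a, all on chromosome 3, since Clca3, Clca5 and Clca6 exist as older names alone. None of the 6 genes passed the threshold at an adjusted p under 0.05 in edgeR, and 2 of them had an unadjusted p under 0.05. DESeq2 called Clca2 and limma-voom called Clca1. The table's Clca1 had 35.7, 21.3 and 17.8 CPM in muscle and 0, 5.55 and 2.22 CPM in epithelium. The table's Clca2 had 10.6, 52.5 and 11.5 CPM in muscle and 0.074, 4.48 and 1.39 CPM in epithelium. For both genes every muscle library was above every epithelial one. The epithelial values had the order of the background counts, with 0 and 4 counts in replicate 1. The log2 fold changes were 3.31 ± 1.28 (edgeR adjusted p = 0.16) for Clca1 and 3.70 ± 1.19 (0.092) for Clca2. Without the 3 libraries that held the most background counts both passed, at an edgeR adjusted p of 0.0014 and 0.0031, in a fit with 1 epithelial library that is assumed to vary like the muscle ones.

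The split of reads between this pair is uncertain because the genes are near copies. Their coding sequences, taken as the longest open reading frame of the longest coding GENCODE transcript, are both 2709 bases long and 97.1% identical. The ratio of Clca2 to Clca1 counts was 0.30, 2.46 and 0.64 in muscle replicates 1 to 3, so the genes changed places in replicate 2. The window of 60 coding bases (559 to 618) in which they differ most is shown, with the 13 differing bases in capitals. A read can be assigned from its own bases if it covers a differing base, in this window or elsewhere. The line called shared gives the longest identical run, 242 bases from 902 to 1143, and a read that lies wholly inside it cannot be assigned from its own bases.
Clca3a1: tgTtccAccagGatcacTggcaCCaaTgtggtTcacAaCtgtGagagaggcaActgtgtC
Clca3a2: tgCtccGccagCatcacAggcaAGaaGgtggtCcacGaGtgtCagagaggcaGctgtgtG
shared: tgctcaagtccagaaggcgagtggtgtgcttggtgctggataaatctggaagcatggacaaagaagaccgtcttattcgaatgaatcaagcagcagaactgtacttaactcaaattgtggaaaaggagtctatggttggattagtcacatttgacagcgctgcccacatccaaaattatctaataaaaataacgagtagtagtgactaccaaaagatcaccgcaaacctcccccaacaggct
Of all 50-base stretches of Clca3a1 transcripts, 26.8% also occur in another annotated gene, mostly in Clca3a2. The remaining Clca genes were low. Clca3, the Gob5 gene of goblet cells, had 1.17, 12.7 and 3.76 CPM in epithelium and 0.076, 2.00 and 0 CPM in muscle, with overlapping groups. It did not pass the threshold (-3.09 ± 1.85, edgeR adjusted p = 0.43), but did without muscle replicate 2 (0.034). Clca5 had 0.71, 9.69 and 6.65 CPM in epithelium and 1.44, 7.49 and 0.43 CPM in muscle, so its highest values were in the libraries with many background counts (edgeR adjusted p = 0.87).

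The CLC family divides into plasma membrane channels, such as Clcn1 and Clcn2, and chloride-proton exchangers of endosomes, lysosomes and other vesicles (Clcn3 to Clcn7, with Clcn4 listed as Clcn4-2). Of its 9 genes 1 passed in edgeR, Clcn3, which was higher in epithelium. Clcn3 lies on chromosome 8 (60910389 to 60983300, minus strand, 12 merged exons). It had 88.0, 49.9 and 87.7 CPM in epithelium and 24.5, 26.6 and 19.9 CPM in muscle. The muscle libraries lay close together at 23.7 ± 3.38 CPM (SD, n = 3), and the log2 fold change was -1.67 ± 0.29 (edgeR adjusted p = 0.0062). The call held under all 16 alternatives. The other exchangers did not pass the threshold in edgeR. Clcn4-2, whose product forms mixed dimers with that of Clcn3, had 162, 106 and 144 CPM in muscle and 98.6, 66.5 and 89.9 CPM in epithelium. Its groups did not overlap in the direction of muscle, and the fold change of 0.69 ± 0.26 did not pass (edgeR adjusted p = 0.15), while DESeq2 called the gene (adjusted p = 0.030), as did edgeR with only the libraries of the later date in the file header (0.046). An opposite-strand gene, Gm45631, overlaps 11.5% of its exon bases, so part of its counts is uncertain. The Clcn4-2 to Clcn3 count ratio was 6.62, 3.99 and 7.23 in the muscle libraries, against 1.12, 1.33 and 1.03 in the epithelial ones, without overlap. The ratio is within each library and so does not depend on scaling, but it sets genes of different length side by side.

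Clcn5 (23.5 ± 7.77 CPM in muscle, 15.5 ± 2.06 in epithelium, SD, n = 3), Clcn6 (10.2 ± 1.58 and 11.8 ± 2.88) and Clcn7 (77.1 ± 21.0 and 52.1 ± 19.4) did not pass, with edgeR adjusted p of 0.31, 0.90 and 0.42. Clcn7 encodes the lysosomal exchanger. Its obligate partner Ostm1 had 18.3 ± 2.09 CPM in muscle and 25.2 ± 2.27 CPM in epithelium, without overlap and without passing the threshold (-0.46 ± 0.23, edgeR adjusted p = 0.31). Per kilobase of exon, Clcn4-2 and Clcn7 held the largest shares of the 5 exchangers in each library. Clcn3 made up 4.06% ± 1.37 of that sum in muscle and 15.9% ± 2.30 in epithelium. Its exon length, the union over all annotated transcripts, is 17.1 kb, against 8.58 kb for Clcn4-2 and 5.29 kb for Clcn7, which lowers its share. In CPM not divided by length, the epithelial mean of Clcn3 was 75.2, against 85.0 for Clcn4-2 and 52.1 for Clcn7. In muscle these means were 23.7, 137 and 77.1. Clcn2, a plasma membrane channel opened by hyperpolarisation, had 36.1, 18.7 and 33.7 CPM in muscle and 51.5, 17.2 and 26.8 CPM in epithelium. The libraries numbered 2 were the lowest of each group, and the groups overlapped (-0.11 ± 0.42, edgeR adjusted p = 0.95).

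**Figure D2:**
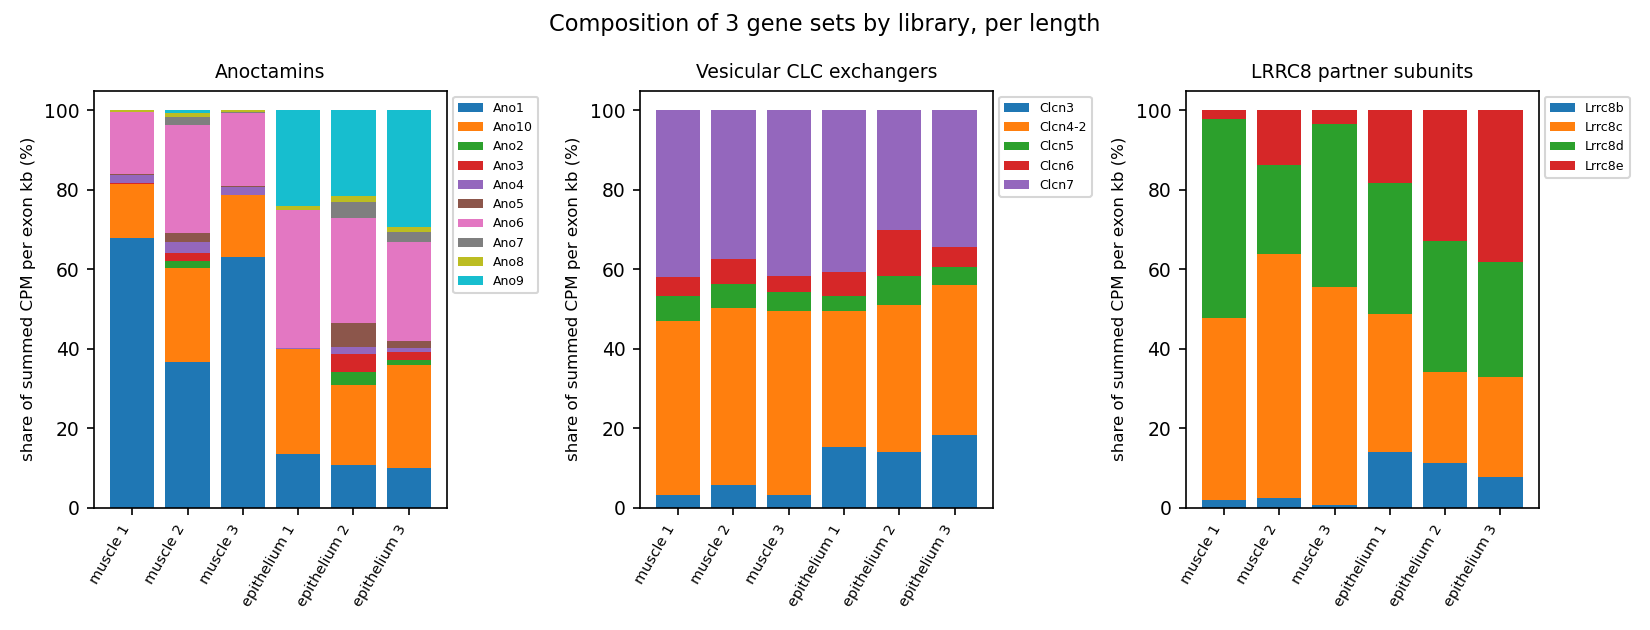
Share of each gene in the summed CPM per exon kilobase (y axis, percent) of the anoctamins, the vesicular CLC exchangers and the LRRC8 partner subunits, in each of the 6 libraries (x axis). Ano1 is the largest anoctamin part in muscle, Ano9 appears in epithelium, and the Clcn3, Lrrc8b and Lrrc8e parts are larger in the epithelial libraries.

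Volume-regulated anion channels are built from Lrrc8a, which every channel needs, and at least 1 of Lrrc8b to Lrrc8e, which set what the channel passes. Lrrc8a had overlapping groups, with 92.0, 70.3 and 114 CPM in muscle and 76.7, 49.3 and 76.0 CPM in epithelium (0.45 ± 0.28, edgeR adjusted p = 0.46). Its value is uncertain, since 65.2% of its 50-base stretches also occur in Gm28035, a same-strand gene that overlaps its exons. Lrrc8c (chromosome 5, 105519388 to 105613018, plus strand, 6 merged exons) had 38.8, 47.9 and 46.8 CPM in muscle and 15.5, 14.7 and 13.03 CPM in epithelium. It had little spread within either group, and the log2 fold change was 1.63 ± 0.23 (edgeR adjusted p = 0.0025). Leaving out any 1 library kept the call. It was lost without the 3 libraries with the most background counts (edgeR adjusted p = 0.063).

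The other partner subunits did not pass in edgeR. Lrrc8d had 69.3, 28.8 and 57.2 CPM in muscle and 24.1, 35.2 and 24.7 CPM in epithelium, so muscle replicate 2 fell within the epithelial range. Its log2 fold change was 0.89 ± 0.34 (edgeR adjusted p = 0.16), and without muscle replicate 2 it was 1.19 (0.019). Lrrc8b had 5.15 ± 1.50 CPM in epithelium and 1.23 ± 0.65 CPM in muscle without overlap (SD, n = 3, edgeR adjusted p = 0.28), and DESeq2 called it (adjusted p = 0.033). Lrrc8e had 4.39, 11.5 and 10.7 CPM in epithelium and 1.03, 5.84 and 1.62 CPM in muscle, where replicate 2 overlapped (edgeR adjusted p = 0.30). Without muscle replicate 2 its log2 fold change was -2.72 (edgeR adjusted p = 0.049), the 1 call among its 16 alternative fits. Per kilobase, Lrrc8c made up 54.0% ± 7.72 of the partner sum in muscle and 27.6% ± 6.43 in epithelium. Lrrc8e made up 6.53% ± 6.35 in muscle and 29.7% ± 10.3 in epithelium, and Lrrc8b 1.72% ± 0.95 and 11.03% ± 3.11. These shares were described and not tested.

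CLIC proteins exist in soluble and membrane-inserted forms, and how far they act as channels in cells is debated. They are tied to actin-rich membranes and vesicle traffic. Clic1 and Clic4 were the most abundant members in muscle per kilobase of exon (188 ± 15.3 and 99.6 ± 29.96 CPM, SD, n = 3), ahead of Ano1 (43.8 ± 26.1). In epithelium Clic1 (89.9 ± 20.1) was followed by Clic6 (35.7 ± 11.2) and Clic4 (35.3 ± 7.55), which did not differ from each other beyond their spread. Both widely expressed genes were higher in muscle. Clic4 (chromosome 4, 135213969 to 135272814, minus strand) had 813, 434 and 716 CPM in muscle and 282, 182 and 232 CPM in epithelium, a log2 fold change of 1.50 ± 0.31 (edgeR adjusted p = 0.015). Clic1 (chromosome 17, 35049966 to 35058749, plus strand) had 334, 314 and 369 CPM in muscle and 201, 129 and 156 CPM in epithelium, a log2 fold change of 1.07 ± 0.25 (0.026). In both genes the groups did not overlap. Clic4 lost its call without muscle replicate 1, muscle replicate 3 or epithelium replicate 3 (edgeR adjusted p of at most 0.080). Clic1 lost it in 4 of the 6 fits without a library, namely muscle replicate 1 or 3 or epithelium replicate 2 or 3 (at most 0.17), and without the 3 libraries with the most background counts (0.10).

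Clic6 (chromosome 16, 92485736 to 92541243, plus strand) was the epithelial member of the family. It had 127, 104 and 188 CPM in epithelium and 2.74, 8.64 and 8.27 CPM in muscle. Epithelium was 21.3-fold higher (log2 fold change -4.42 ± 0.48, edgeR adjusted p = 0.00085), and the call held in all 16 alternative fits. Clic3 had 2.99, 9.96 and 5.82 CPM in epithelium and at most 0.80 CPM in muscle. It did not pass the threshold although the groups were apart (-3.46 ± 1.02, edgeR adjusted p = 0.067). DESeq2 gave an adjusted p of 0.00018 for it.

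Tweety proteins were described as large-conductance chloride channels, which later structural work has questioned. Ttyh2 (chromosome 11, 114675431 to 114720977, plus strand, 14 merged exons) had 29.9, 36.5 and 23.9 CPM in muscle and 3.20, 12.8 and 6.84 CPM in epithelium. No epithelial library reached the lowest muscle value, and the log2 fold change was 2.00 ± 0.47 (edgeR adjusted p = 0.027). The order of the epithelial libraries was that of their background counts. The call was lost without muscle replicate 1 (edgeR adjusted p = 0.057) or epithelium replicate 3 (0.12), and with other scalings (0.062 with RLE and 0.12 with library size only). Ttyh1 leaned the other way, with 8.94, 13.2 and 11.04 CPM in epithelium and 1.63, 4.19 and 1.19 CPM in muscle. It did not pass (-2.25 ± 0.65, edgeR adjusted p = 0.062), although it passed in 6 of the 16 alternative fits, with the lowest edgeR adjusted p (0.012) without muscle replicate 2. Other genes on the opposite strand overlap 6.6% of its exon bases. Ttyh3 had overlapping groups at 26.3 ± 10.8 and 25.2 ± 8.40 CPM (SD, n = 3, log2 fold change 0.06 ± 0.36, edgeR adjusted p = 0.97), and its sign changed with the setting.

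**Figure D3:**
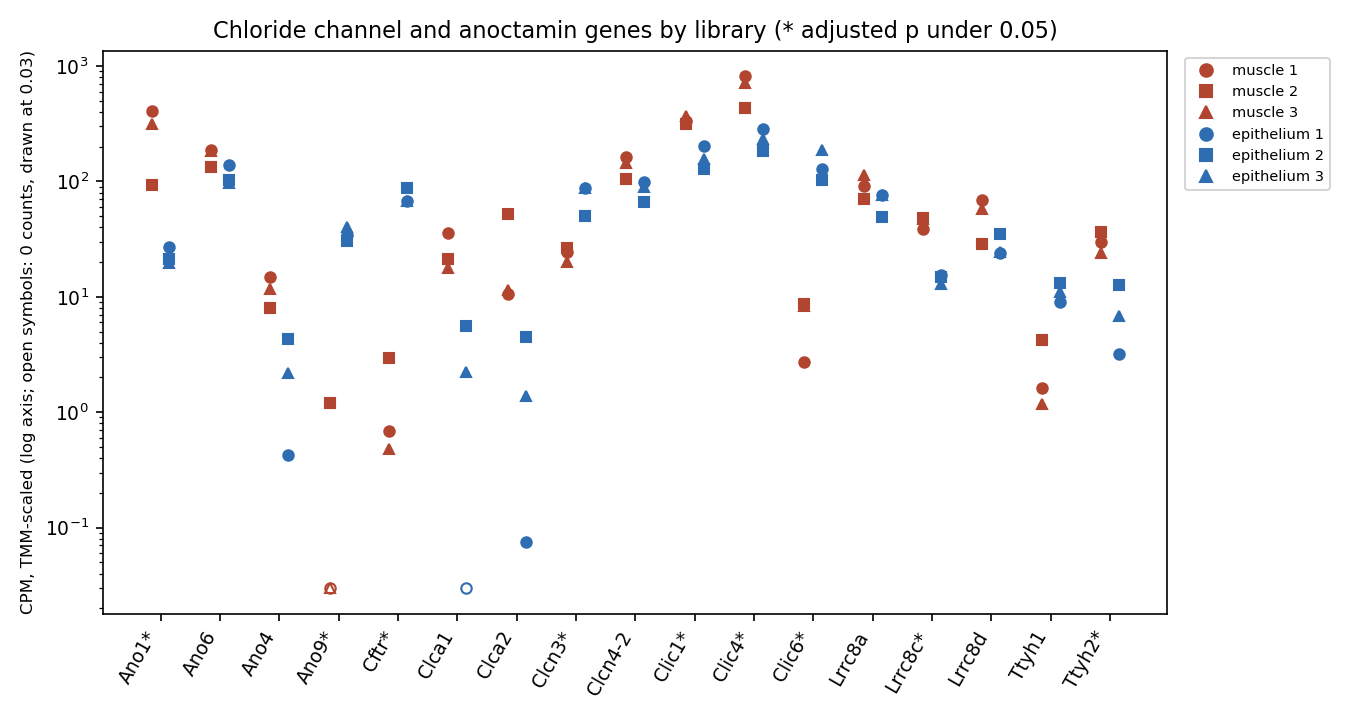
CPM of 17 members (log axis) in each library, with muscle in red, epithelium in blue and the replicate number as the symbol, and stars for an adjusted p under 0.05. Ano1 in muscle replicate 2 (93.4 CPM) lies below the other muscle libraries but above all epithelial ones, and the muscle values of Ano9 and Cftr are at most 2.95 CPM.

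The 13 members with a mean under 5 CPM in both groups included Ano2, Ano3, Ano7, Ano8, Best1, Best2, Best3, the table's Clca4 and Clca6, Clcn1 and Clic5. Among them are channels best known from sensory neurons and retina (Ano2, Best1) and skeletal muscle (Clcn1). None passed the threshold in edgeR, DESeq2 or limma-voom, and 0 had an unadjusted edgeR p under 0.05. Their highest value in any library was 10.1 CPM (Ano3 in epithelium replicate 2), and 9 of the 13 were highest in epithelium replicate 2 and 4 in muscle replicate 2. In the 3 libraries with few background counts, none exceeded 2.16 CPM, the level of Ano8. Summed over the 13 genes the level was 59.2 CPM in epithelium replicate 2, 44.3 CPM in muscle replicate 2 and 34.6 CPM in epithelium replicate 3, and 6.17 to 9.20 CPM in the remaining libraries. The plot of these sums against the receptor genes shows the same split of libraries, which cuts across the tissues. Over all 42 members, 25 were above the 95th percentile of the receptor genes in all 6 libraries, and 5 were so throughout neither group. That percentile was 0 CPM in epithelium replicate 1, where any count passes it, and 3.54 CPM in epithelium replicate 2. The 25 include Ano5, at 0.037 CPM in epithelium replicate 1, and the low members Clca4 and Clic5. Passing this cut therefore does not show that a gene is expressed above background. The part of background counts in these values was not tested.

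**Figure D4:**
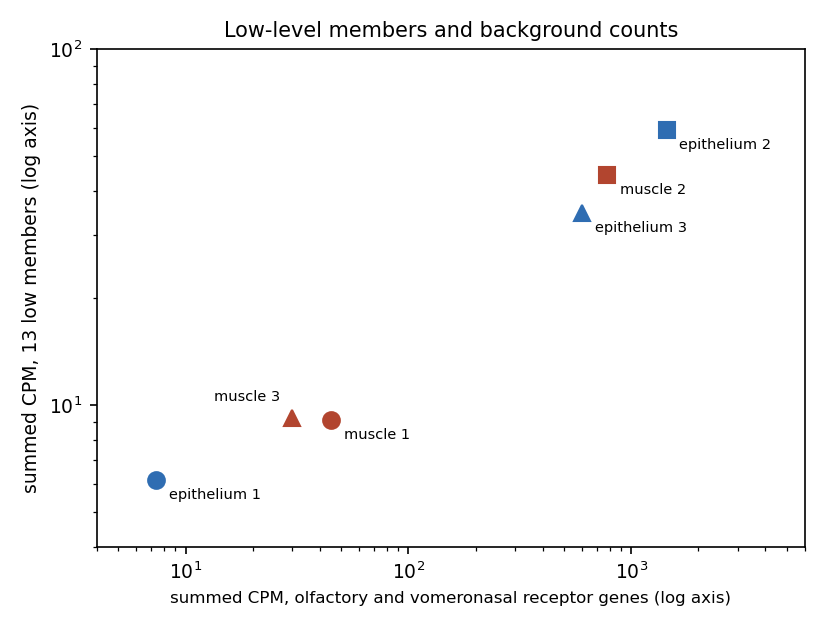
Summed CPM of the 13 low members (y axis, log) against summed CPM of 1456 olfactory and vomeronasal receptor genes (x axis, log), with 1 point per library. Muscle replicate 2 and epithelium replicates 2 and 3 lie at 34.6 to 59.2 CPM of the low members, and the other libraries at 6.17 to 9.20.

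Genes that load chloride into cells, carry it beside these channels or control them were taken from lists of 52 symbols. The lists also hold epithelial sodium and water channel genes. Of these symbols, 50 were in the table and 48 were tested. 1 was higher in muscle and 2 in epithelium in edgeR (6.25% of those tested, against 10.7% of all tested genes), and the median log2 fold change was -0.30. Slc12a2, the cotransporter that loads chloride in secretory cells and smooth muscle, had 34.9 ± 5.63 CPM in muscle and 36.9 ± 7.56 CPM in epithelium (SD, n = 3). The difference was smaller than the spread of either group (-0.08 ± 0.25, edgeR adjusted p = 0.94). Ezr, which encodes ezrin and links membrane proteins such as Cftr to apical actin, was higher in epithelium, with 13.5 ± 3.59 CPM in muscle and 299 ± 33.1 CPM in epithelium (-4.47 ± 0.30, edgeR adjusted p = 9.6e-05). Aqp1, a water channel also of endothelium, was the partner higher in muscle (11.8 ± 2.50 and 1.11 ± 0.19 CPM, 3.41 ± 0.57, edgeR adjusted p = 0.0058). None of 6 calcium release channel genes, whose products open Ano1 channels by raising calcium, passed the threshold in edgeR or DESeq2, while limma-voom called Itpr1, the 1 gene with an unadjusted edgeR p under 0.05. Itpr1 had 46.0 ± 18.9 CPM in muscle and 18.2 ± 8.33 CPM in epithelium with overlapping groups (1.35 ± 0.42, edgeR adjusted p = 0.084). None of the 12 anion exchanger genes tested and none of the 6 kinase genes of the WNK pathway passed in edgeR or DESeq2. 0 of either list had an unadjusted edgeR p under 0.05, and limma-voom called Slc26a7 and Wnk4. Of 5 other chloride channel genes tested, 0 passed in edgeR and in limma-voom, and Slco2a1, with an unadjusted edgeR p under 0.05, passed in DESeq2.

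Markers of other cell types were present at lower levels. The 8 endothelial markers summed to 46.8 to 78.0 CPM in muscle and 13.5 to 67.5 CPM in epithelium, with Cldn5 and Tie1 at 0 in muscle replicate 1. None of them passed in edgeR or DESeq2, and Tek, with an unadjusted edgeR p under 0.05, passed in limma-voom. Of 7 cartilage markers in the table, Sox9 and Col9a1 were higher in muscle, and the sum was 657 to 1134 CPM in muscle and 230 to 473 CPM in epithelium. The others did not pass in edgeR. By log2 fold change, Acan (1.33) and Col2a1 (0.46) leaned toward muscle, and Comp (-1.76), Matn1 (-1.71) and Hapln1 (-0.67) toward epithelium. The median of the list was 0.46. Of 6 oesophageal epithelium markers, Krt15 and Trp63, which basal cells of the airway express too, were higher in epithelium (list sum 68.0 to 177 CPM against 1.64 to 15.7 CPM in muscle). limma-voom called Trp63 but not Krt15. Krt5 had 19.5, 0.33 and 0.53 CPM in epithelium replicates 1 to 3, and Pax9 had 22.9, 6.08 and 3.87 CPM. Neither passed in edgeR (adjusted p = 0.20 and 0.16), and both were highest in epithelium replicate 1. Of 9 neural and glial markers Ednrb was higher in muscle, with 634, 143 and 569 CPM in muscle replicates 1 to 3. It made up most of the list's sum in muscle (669, 200.5 and 602 CPM), and the median log2 fold change of the list was -0.36. The other 7 tested did not pass in edgeR, and limma-voom also called Stmn2. The 7 immune markers summed to 2.66 to 51.1 CPM in muscle and 3.76 to 44.8 CPM in epithelium, the 5 mesothelial markers to 2.05 to 17.7 and 2.99 to 23.3 CPM, and the 7 erythroid markers to 8.36 to 36.5 and 6.26 to 22.7 CPM. None of these 3 lists had a gene that passed in edgeR, DESeq2 or limma-voom or had an unadjusted edgeR p under 0.05. The immune sums were 23.1 to 51.1 CPM in the 3 libraries with the most background counts and 2.66 to 14.8 CPM in the others. The mesothelial sums were 11.4 to 23.3 CPM and 2.05 to 2.99 CPM in the same order. The highest erythroid sum was in muscle replicate 3, a library with few background counts. The part of such cells in the chloride channel values was not tested.

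**Figure D5:**
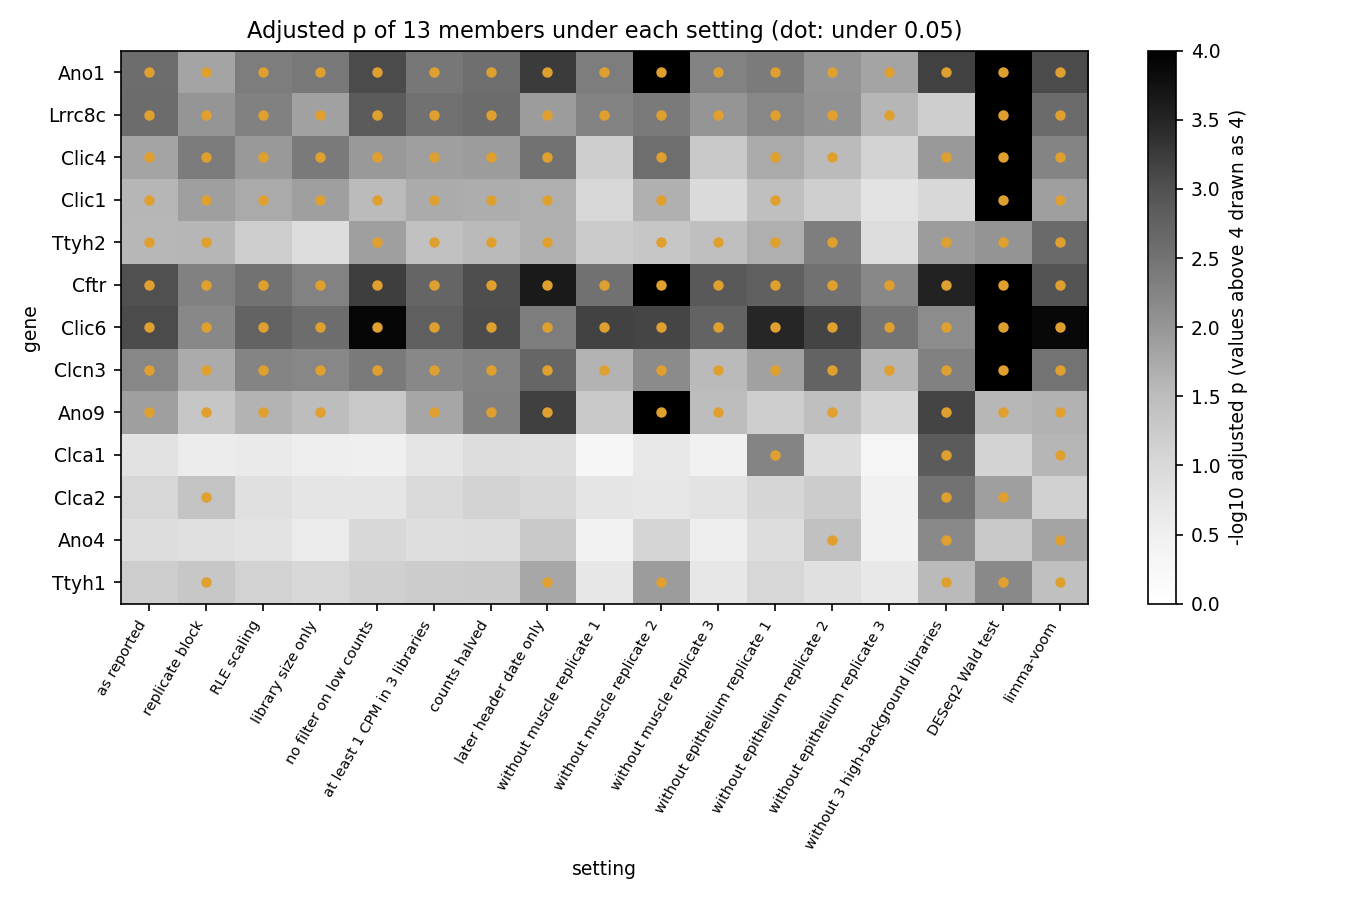
Adjusted p (grey scale, as -log10, values above 4 drawn as 4) of the 9 members past the threshold and of Clca1, Clca2, Ano4 and Ttyh1 under each setting (x axis), with a dot where it was under 0.05. Ano1, Cftr, Clic6 and Clcn3 have a dot in every column, while Clic1 lacks it in 5 and Clca1 and Clca2 have it in 3 each.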

How the data were processed

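The labels' protocols name a SMART-Seq v4 ultra-low-input kit and Nextera XT libraries, which carry no molecular identifiers and in standard use keep no strand. PCR copies are therefore counted, and overlapping antisense genes cannot be told apart by strand. Near-identical genes can be told apart only by reads that cover a differing base. The deposited values are whole-number counts per gene symbol. Per the submitters' processing notes, Trim Galore, Bowtie2, Cufflinks and DESeq and the build mm10 were used, with no role given; the counting program, annotation and filters are not given in the sources used here. Of counts from 1 to 19, 73.8% to 79.6% per library were even, and the cause was not tested. An alternative fit used halved counts.

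Columns were mapped by header line and title. Counts were analysed in R 4.3.3 with edgeR 4.0.16 (filterByExpr by group, TMM, robust quasi-likelihood test, two-sided, no covariate) over 19375 tested genes, with Benjamini-Hochberg adjustment and a threshold of 0.05. SE is derived from the test statistic. limma 3.58.1 (voom) and DESeq2 1.42.0 were alternatives, and the fit was tested on simulated data. An exact permutation test of 3 against 3 cannot go below 0.10 and was not used. Positions, exon lengths and shared 50-base stretches come from GENCODE M21, upstream windows from RefSeq (GRCm38.p6). A transcript comparison replaced the planned protein identity.

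The members and lists were chosen with earlier results of these data known. Members past the threshold or with a mean of at least 5 CPM in a group are described individually, as are list genes past the threshold, except that some items are not reported here. List genes named without passing were chosen after their values were seen. The header identifiers, read as dates, put both libraries numbered 2 on day 3 of month 9 and the other 4 on day 16.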

Additional observations from a re-analysis of the deposited data

How the results depend on the processing

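Of the 29 members described individually, Ano1, Cftr, Clcn3 and Clic6 kept direction and threshold in all 16 alternative fits, and Lrrc8c in 15. The members higher in muscle numbered 8 with DESeq2, 2 at an adjusted p under 0.01 and 2 to 6 without a library (2 without muscle replicate 1 or epithelium replicate 3, 3 without muscle replicate 3). Those higher in epithelium numbered 7 with DESeq2 and 3 to 7 without a library, with 7 without muscle replicate 2. The later header date, with 2 libraries per group, gave 7 and 5 of 39 members tested. Over all genes, 2928 of the 16634 tested passed in that fit, against 2071 of 19375 with all libraries. The higher number of members thus came with more calls over all genes. The earlier date allowed no test. Partner genes higher in muscle numbered 2 with the later date and with DESeq2, 4 with limma-voom, 5 without the 3 libraries with the most background counts (an alternative chosen after seeing the data) and 0 to 3 without a library. Partners higher in epithelium numbered 1 at an adjusted p under 0.01 and 1 to 2 without a library. The counts over the whole table were 1949 in the direction of muscle and 1582 of epithelium with DESeq2, 579 and 404 at an adjusted p under 0.01, 570 to 1655 and 514 to 918 without a library, and 1439 toward epithelium when only library size was used. The median log2 fold change of the table then went from -0.10 to -0.33. Calls toward muscle then made up 42.0% of all, in place of 61.5%. The causes were not tested.

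The sign of Ttyh3 (0.06) was reversed with RLE scaling (-0.05), library size only (-0.19), the later date (-0.08), DESeq2 (-0.05) and limma-voom (-0.01). It was also reversed without the 3 libraries with the most background counts (-0.48) and in some, not all, of the fits without a library (range -0.31 to 0.38). Clcn2 reversed without muscle replicate 2 (0.14) or epithelium replicate 1 (0.44; range without a library -0.50 to 0.44), Ano5 without epithelium replicate 2 (0.55; range -2.72 to 0.55), with limma-voom (1.82) and without the 3 libraries (4.42), and Clca5 without the 3 libraries (0.22). None of these 4 genes passed the threshold in any of these fits.

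With the replicate block, 2418 genes passed in place of 2071, with 1744 shared. Among members 7 were higher in muscle and 5 in epithelium, Clca2 (adjusted p = 0.042, edgeR), Clcn4-2 (0.024) and Ttyh1 (0.047) among them. The libraries share a number, and those numbered 1 and 2 deviated together (correlations across 19375 genes of 0.59 and 0.73) while those numbered 3 did not (-0.57), so the numbers were not taken to pair them.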
